A study of Mus musculus with 30 samples.

Results

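The response of mouse blood to radiation was compared between p38DN and p38WT mice, as the change with irradiation in p38DN minus the change with irradiation in p38WT. Of the 30 one-colour arrays of the series, the 20 arrays of p38WT and p38DN entered this contrast: 5 p38WT unirradiated, 5 p38WT irradiated, 5 p38DN unirradiated and 5 p38DN irradiated. The mice were C57BL/6J males, irradiated groups received 7 Gy of x-rays, and blood was drawn from the heart into an RNA-stabilising lysis solution 24 h later. The third genotype, p38DKI, was not part of the contrast. Its arrays added to the estimate of the spread and to the choice of the probes and genes tested. The labels write the genotypes as p38WT and p38DN and do not spell out the alleles, so which p38 gene is altered, and in which cells, is not stated here.

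The p38 kinases are mitogen-activated protein kinases that cells switch on after stress such as DNA damage, osmotic shock and inflammatory signals. Upstream kinases phosphorylate p38, and active p38 acts on other kinases, transcription factors and RNA-binding proteins that set how long cytokine mRNAs last. In blood, p38 is known for its part in the activation of neutrophils and monocytes, in cytokine production and in checkpoint control after genotoxic stress. Ionizing radiation kills circulating lymphocytes, above all B cells, and induces targets of the transcription factor p53, which is why blood transcripts are studied as gauges of dose.

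Levels are given as log2 of the processed signal minus the array's own 75th percentile, and a gene was called when its Benjamini-Hochberg adjusted p from limma was under 0.05 over all 18726 genes tested. The scanner software flagged 39.72 to 62.57% of probes per array as well above background. The lowest share was that of p38WT irradiated array 3, which differed from the other arrays of its group by an SD of 1.2 to 1.28 (log2). The other pairs of that group differed by 0.454 to 0.859. It was kept, and leaving it out gave 330 genes called for the difference (237 higher, 93 lower). Per the file headers, p38WT arrays were read in 1 scanning period and p38DN arrays on 5 other scan days and slides, so genotype and scanning period cannot be told apart. Each p38DN slide held the unirradiated and the irradiated array of the same number, whereas slide 7 was the only slide with p38WT arrays of both doses. Transcripts of liver stood out on some arrays: the mean level of 47 hepatocyte markers reached 5.48, 6.44 and 6.43 in the unirradiated p38DN group on arrays 2, 4 and 5, stood at 0.23 and -0.48 on its arrays 1 and 3, and lay between -1.86 and 2.09 on the irradiated p38DN arrays. In p38WT the same mean lay between -3.23 and -2.38 without and between -2.65 and -1.16 with irradiation. Heart muscle markers were high on p38WT unirradiated arrays 1 (1.85) and 3 (0.50), p38WT irradiated array 2 (3.12) and p38DN irradiated array 3 (2.33). The p38DN unirradiated arrays 4 and 5 differed by an SD of only 0.174 (log2) over 9346 probes, against 0.278 for the next closest pair, p38DN irradiated arrays 1 and 5, and 0.31 for the closest p38WT pair. Their single-spot differences (0.113) were close to the spread of repeated spots within an array (0.101), and whether they share an RNA was not tested; a fit with their mean as 1 array is given beside the main count. Differences are therefore given with all arrays and, for most, without p38DN unirradiated arrays 2, 4 and 5.

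Irradiation changed many genes in each genotype, and the change differed between the genotypes for few of them. In p38WT, 5075 of 18726 genes were called (27.1%), 2814 higher (15%) and 2261 lower (12.1%) after irradiation. In p38DN, 5229 were called (27.9%), 3292 higher (17.6%) and 1937 lower (10.3%). The difference between the changes was called for 307 genes (1.64%): for 187 (0.999%) the change was higher in p38DN than in p38WT, and for 120 (0.641%) it was lower. The difference was at least 2-fold for 276 of the 307, and the median over all genes was 0.08 (log2), or -0.06 without p38DN unirradiated arrays 2, 4 and 5. With p38DN unirradiated arrays 4 and 5 averaged, 145 genes were called (84 higher, 61 lower).

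Without p38DN unirradiated arrays 2, 4 and 5, the difference was called for 77 genes (0.411%), 23 higher (0.123%) and 54 lower (0.288%). In that fit 11.7% of genes were lower after irradiation in p38WT, and 19.9% were called in p38DN, 9.95% higher and 9.95% lower. All 307 genes kept the sign of their difference, and 51 were called in both fits, 17 higher and 34 lower, which is 16.6% of the first list and 66.2% of the second. The p38DN irradiated arrays 2 and 4 were the highest irradiated arrays in hepatocyte markers (2.09 and 1.81). With them left out as well, 2 genes were called (0.0107%), both lower, Meig1 and LF193455 (-1.98, adjusted p = 0.0477). In that fit 8.35% of genes rose and 6.13% fell in p38DN. The fit rests on 2 unirradiated and 3 irradiated p38DN arrays, and irradiated arrays 1 and 5 among these were the closest irradiated p38DN pair (SD 0.278). The split of higher against lower also moved with the scaling: without any scaling it was 273 to 13, with the median of all genes at 0.60. In the authors' deposited log2 table it was 96 to 170. That table differs in more than scaling: it covered 18387 genes and 249 of the 307, and the background filter was not applied to it. The split also moved with a covariate. With the hepatocyte marker level as that covariate it was 283 to 757. With the slide as a fixed block, where the p38WT change rests on slide 7, 2 genes were called, and with the slide as a random block 461. With the replicate number as a block, which in p38DN is also the slide, 283 genes were called with all arrays and 4 instead of 77 without the 3 arrays, so the calls made in both fits hold for the unblocked fits. After normexp background correction 1 gene was called, although 2466 genes had an unadjusted p under 0.05, against 3554 in the main fit. That setting added an offset of 50 to every spot, beside 75th percentiles of the processed signal of 43.3 to 127.5 on the 20 arrays. An offset of that size narrows log2 changes of dim genes, and its part in the lost calls was not tested.

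**Figure D1:**
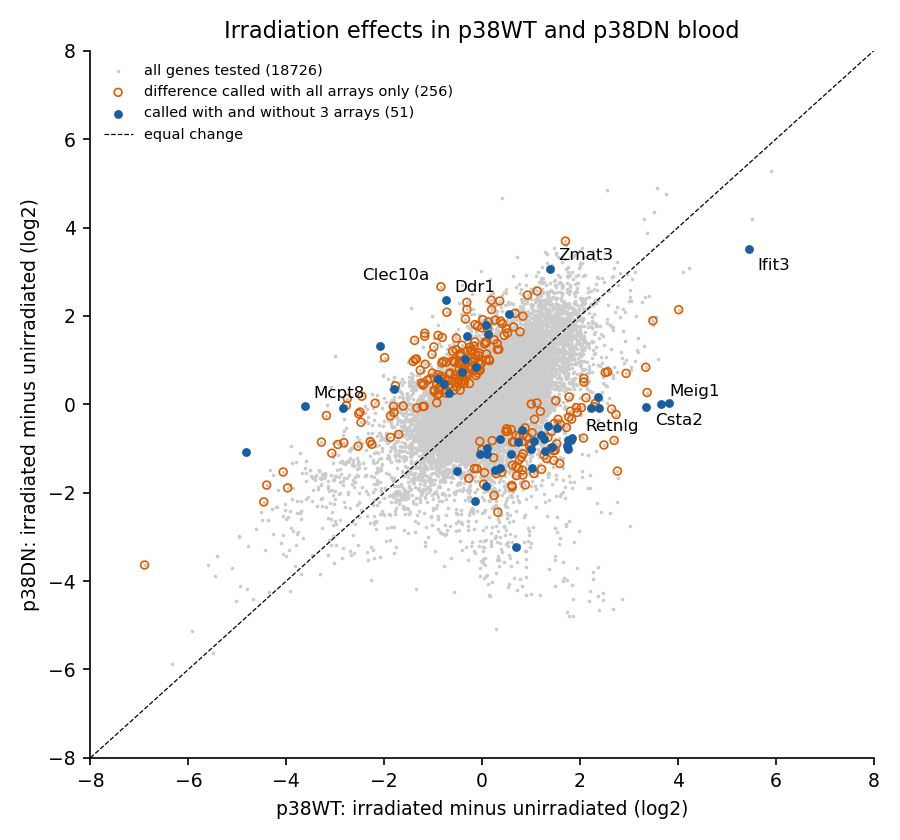
Each point is a gene, with the change after irradiation in p38WT on the x axis and in p38DN on the y axis, both in log2; orange rings mark 256 genes called for the difference with all arrays only and blue points 51 genes called with and without p38DN unirradiated arrays 2, 4 and 5. Called genes lie away from the dashed line of equal change, and many lie near 0 on one axis.

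Most of the 307 genes were called for a change in a single genotype. The gene rose in p38DN and was not called in p38WT for 96 of them, rose in p38WT and was not called in p38DN for 62, fell in p38WT and was not called in p38DN for 53, and fell in p38DN and was not called in p38WT for 40. Opposite called changes were found for 17 genes that fell in p38WT and rose in p38DN and for 14 genes that did the reverse. Only 25 genes were called in the same direction in both genotypes: 10 rose more and 3 rose less in p38DN, and 11 fell less and 1 fell more. These classes rest on the same arrays as the calls and describe them. A gene not called in a genotype was not shown to be unchanged there, as with Ddr1 in p38WT (-0.74, adjusted p = 0.242).

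Among the 51 genes called in both fits the order was different. The largest class was the 16 genes that rose in p38WT and were not called in p38DN, followed by 11 that fell in p38DN and were not called in p38WT. Only 7 rose in p38DN and were not called in p38WT, against 96 of the 307. Of the 51, 20 were well above background on all 20 arrays, 7 were above background on no p38DN array and 3 on no p38WT array, so part of these differences are bounds set by the detection limit.

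The genes of the p38 family themselves were measured in all 4 groups. Mapk14 encodes p38 alpha, the main form in most blood cells. Its level was 4.32, 3.85, 4.23, 3.71 and 4.01 on the p38WT unirradiated arrays and 4.11, 4.81, 5.39, 5.69 and 4.59 on the irradiated ones. In p38DN it was 2.62, 2.71, 2.64, 2.97 and 2.99 without and 4.28, 4.11, 3.80, 3.84 and 4.32 with irradiation. All 5 irradiated p38DN arrays lay above the unirradiated ones, whereas the p38WT groups overlapped. Mapk14 rose by 0.89 in p38WT (adjusted p = 0.00443) and by 1.28 in p38DN (adjusted p = 0.000142), and the difference of 0.39 (SE 0.324, adjusted p = 0.541) was not called, with a second probe of the gene at -0.26. It was 0.55 without the 3 arrays (adjusted p = 0.527).

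Mapk12, which encodes p38 gamma, was the only one of the 4 p38 genes called for the difference. Its p38WT levels fell from -0.07, 0.05, -0.47, 0.04 and -0.93 to -1.75, -2.05, -1.66, -3.40 and -1.54. In p38DN they were -0.45, -1.14, -1.31, -1.60 and -1.60 without and -1.59, -0.84, -1.36, -0.84 and -1.71 with irradiation, and the groups overlapped. The p38WT fall of 1.81 (log2; adjusted p = 9.92e-05) against a p38DN change of -0.05 gave a difference of 1.76 (SE 0.436, adjusted p = 0.0403). Without the 3 arrays it was 1.42 (adjusted p = 0.178), and with p38DN unirradiated arrays 4 and 5 averaged it was no longer called. The call of Mapk12 was lost in 23 of 41 alternative settings, among them leaving out p38WT unirradiated array 1, 2, 3 or 4. Mapk11, p38 beta, had a difference of 1.13 (adjusted p = 0.113) and Mapk13, p38 delta, one of -1.49 (adjusted p = 0.0655). The fit without the 3 arrays gave 0.75 (adjusted p = 0.409) and -1.88 (adjusted p = 0.0786).

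Of 41 measured genes of the p38 cascade, from upstream kinases to downstream kinases and phosphatases, 2 were called higher for the difference (0.999% of all genes) and 0 lower. The second was Map3k6, a stress-activated kinase kinase kinase also known as ASK2. In p38WT it stood at -0.06, -0.66, -0.34, -0.79 and -0.41 without and at -0.31, -0.29, 0.33, -0.05 and -0.13 with irradiation, and the groups overlapped. In p38DN it went from -0.50, -1.82, -1.02, -1.14 and -1.25 to 0.67, 2.09, 1.27, 1.36 and 0.57, with every irradiated array above every unirradiated one. The change of 0.36 in p38WT and 2.34 in p38DN (adjusted p = 2.22e-07) gave a difference of 1.98 (SE 0.355, adjusted p = 0.0112), with 1.78 from its other probe. It was 1.59 without the 3 arrays (adjusted p = 0.0670). In p38WT 7 cascade genes rose and 4 fell, beside 15% and 12.1% of all genes. In p38DN 10 rose and 1 fell, beside 17.6% and 10.3%. The median difference of the list was 0.22, beside 0.08 over all genes, and 0.06 without the 3 arrays. This and the other lists were chosen with earlier results of these data known. The shares of all genes beside their counts therefore describe the lists and test nothing.

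Targets of p53, which drive cell cycle arrest, repair and cell death after DNA damage, rose in both genotypes. Of 44 measured targets, 25 rose and 3 fell in p38WT (15% and 12.1% of all genes), and 25 rose and 2 fell in p38DN (17.6% and 10.3% of all genes). The mean level of the list went from between 0.12 and 0.32 to between 1.08 and 1.34 in p38WT, and from between -0.25 and -0.04 to between 1.09 and 1.20 in p38DN. For the difference, 2 of 44 were called higher (0.999% of all genes) and 0 lower (0.641%), and the median difference of 0.47 (0.08 over all genes) was 0.34 without the 3 arrays. Cdkn1a, the p21 inhibitor of cyclin-dependent kinases, rose by 3.50 in p38WT (adjusted p = 1.01e-06) and by 4.35 in p38DN (adjusted p = 5.21e-08), a difference of 0.84 (SE 0.60, adjusted p = 0.458) that was not called. Mdm2, the ubiquitin ligase that degrades p53, rose by 1.33 and 2.07, with a difference of 0.74 (adjusted p = 0.0746). The differences were 0.73 without the 3 arrays for Cdkn1a (adjusted p = 0.644) and 0.58 for Mdm2 (adjusted p = 0.296).

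The target called in both fits was Zmat3, a p53-induced zinc finger protein that binds RNA (probe at chr3:32233831-32233890, mm9). In p38WT its level was -2.16, -2.16, -2.13, -2.11 and -1.88 without and -0.76, -0.62, -0.51, -0.85 and -0.76 with irradiation. In p38DN it was -2.15, -2.27, -2.81, -2.23 and -2.41 without and 0.63, 0.95, 0.11, 0.99 and 0.78 with irradiation. The unirradiated groups overlapped, and all 5 irradiated p38DN arrays lay above all 5 irradiated p38WT arrays. Zmat3 rose 2.62-fold in p38WT and 8.38-fold in p38DN, a difference of 1.68 (log2; SE 0.293, adjusted p = 0.0101), and of 1.78 without the 3 arrays (adjusted p = 0.0397).

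Tnfrsf10b, the death receptor for the ligand TRAIL, was called with all arrays only. It stood at -2.03, -1.86, -2.04, -1.78 and -2.26 without and at -0.51, -0.06, 0.20, -0.45 and -0.62 with irradiation in p38WT. In p38DN it was -3.63, -4.31, -4.26, -5.19 and -3.91 without irradiation, well above background on none of these arrays, and -0.19, -0.86, -0.66, -0.76 and -0.36 with irradiation. The irradiated groups of both genotypes overlapped, and the unirradiated groups did not. Tnfrsf10b rose by 1.70 (log2) in p38WT and, as a lower bound on the linear scale, at least 5.63-fold in p38DN. The fitted difference, which uses the dim unirradiated p38DN values themselves, was 1.99 (log2; SE 0.386, adjusted p = 0.0147). Without the 3 arrays it was 1.68 (adjusted p = 0.0670). Under normexp background correction the sign turned (-0.46).

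**Figure D2:**
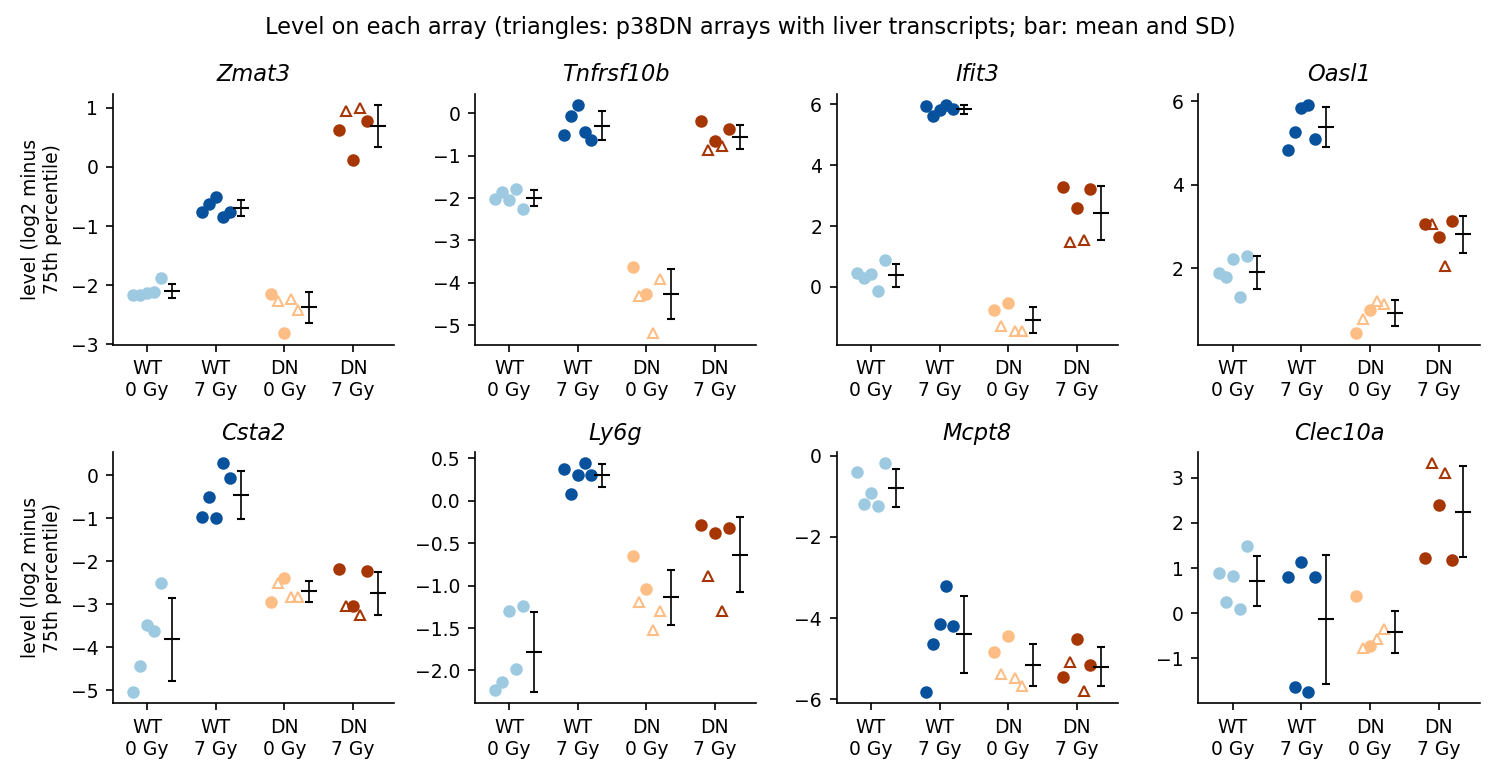
The y axis gives the level (log2 minus the 75th percentile) of 8 genes on each of the 20 arrays, by genotype and dose, with the mean and SD of 5 arrays as a bar and p38DN unirradiated arrays 2, 4 and 5 and irradiated arrays 2 and 4 as open triangles. The irradiated p38DN arrays lie above the irradiated p38WT arrays for Zmat3 and below them for Ifit3, Oasl1, Csta2 and Ly6g.

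Interferon-stimulated genes, the antiviral program that type I interferon switches on, rose in most cases in both genotypes. Of 49 measured, 39 rose and 0 fell in p38WT, beside 15% and 12.1% of all genes. In p38DN 39 rose and 3 fell, beside 17.6% and 10.3%. The mean level of the list went from between 1.49 and 2.05 to between 3.56 and 3.82 in p38WT and from between 0.43 and 1.03 to between 1.74 and 2.48 in p38DN. For the difference, 2 of 49 were called lower (0.641% of all genes) and 0 higher, and the median difference was -0.28 (0.08 over all genes) and -0.55 without the 3 arrays. Without scaling this median was 0.24, with all genes at 0.60.

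Ifit3, an interferon-induced protein that binds viral RNA together with its Ifit relatives, was called lower in both fits (probe at chr19:34663105-34663164, mm9). In p38WT it rose from 0.45, 0.28, 0.41, -0.13 and 0.89 to 5.95, 5.61, 5.80, 5.97 and 5.83. In p38DN it rose from -0.74, -1.29, -0.51, -1.46 and -1.43 to 3.27, 1.46, 2.60, 1.53 and 3.23. Both genotypes responded on every array, and the highest irradiated p38DN array stayed below the lowest irradiated p38WT array. The rise was 43.8-fold in p38WT and 11.4-fold in p38DN, a difference of -1.95 (log2; SE 0.433, adjusted p = 0.0250), and of -2.41 without the 3 arrays (adjusted p = 0.0412). The lowest irradiated p38DN arrays, 2 and 4, were the ones high in hepatocyte markers, and with them also left out the difference was -1.79 (adjusted p = 0.0874).

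Oasl1, a relative of the oligoadenylate synthetases that represses translation of the interferon regulator Irf7, was called with all arrays only. Its p38WT levels were 1.89, 1.78, 2.22, 1.31 and 2.29 without and 4.82, 5.26, 5.84, 5.91 and 5.10 with irradiation. In p38DN they were 0.44, 0.78, 1.0, 1.22 and 1.15 without and 3.06, 3.06, 2.75, 2.05 and 3.12 with irradiation. The groups overlapped in neither genotype, and the difference was -1.60 (SE 0.360, adjusted p = 0.0267), or -1.40 without the 3 arrays (adjusted p = 0.122). Not all members had a difference of this sign. Oas2, a synthetase of the same family, rose by 3.31 in p38WT and 4.18 in p38DN, and Mx1, an antiviral GTPase, by 2.51 and 3.43, with differences of 0.87 (adjusted p = 0.257) and 0.92 (adjusted p = 0.243) that were not called. Ifit2 differed by -1.49 (adjusted p = 0.0700). Ifit1bl2, singled out after its values were seen as a relative outside the list, differed by -2.24 (adjusted p = 0.0147) and by -2.23 without the 3 arrays (adjusted p = 0.0579). Ifit3b, a close copy of Ifit3, differed by -1.33 (adjusted p = 0.256), and signal shared between the copies was not tested.

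The promoters of both called members are shown because the interferon response works through a known DNA element, the interferon-stimulated response element. The 250 bases before the start of each gene come from RefSeq (GRCm38.p6, both genes on the + strand), and capitals mark matches on either strand to GAAA, any 2 bases and GAAA again.
Ifit3, chr19:34583279-34583528: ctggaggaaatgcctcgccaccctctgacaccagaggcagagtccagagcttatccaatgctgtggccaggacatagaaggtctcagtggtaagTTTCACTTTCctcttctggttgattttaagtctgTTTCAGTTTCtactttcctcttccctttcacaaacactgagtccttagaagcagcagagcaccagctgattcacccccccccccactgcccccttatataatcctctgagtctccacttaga
Oasl1, chr5:114922990-114923239: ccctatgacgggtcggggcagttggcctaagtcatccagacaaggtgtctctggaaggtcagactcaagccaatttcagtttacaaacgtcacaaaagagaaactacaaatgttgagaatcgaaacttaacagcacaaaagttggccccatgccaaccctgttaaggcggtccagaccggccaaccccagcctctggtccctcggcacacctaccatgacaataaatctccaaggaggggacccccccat
The Ifit3 window held 2 matches and the Oasl1 window 0. Of 27025 genes with such a window, 936 (3.46%) held a match, and of 38 measured interferon-stimulated genes with a window, 17 did (44.7%). A match describes letters only, and no match says nothing about the factor.

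Of 31 measured neutrophil markers, 24 rose and 0 fell in p38WT, beside 15% and 12.1% of all genes. In p38DN 8 rose and 1 fell, beside 17.6% and 10.3% of all genes. The mean level went from 1.76, 1.45, 2.30, 1.24 and 2.62 to 3.18, 3.49, 3.70, 3.93 and 3.38 in p38WT and from 1.44, 1.39, 1.70, 1.24 and 1.22 to 2.32, 2.27, 1.69, 1.87 and 2.25 in p38DN. The calls for the difference were 4 of 31 lower (0.641% of all genes) and 0 higher. The median difference was -1.10 (0.08 over all genes), and -1.16 without the 3 arrays, where 0 of 31 were called. Irradiated p38DN array 3 (1.69) stood at the level of unirradiated array 3 (1.70). In whole blood a lower share of neutrophils and less RNA per neutrophil cannot be told apart, and the same holds for every cell type below.

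The 4 called markers were Retnlg, Ly6g, Fpr1 and Fpr2. Retnlg, a resistin-like protein of neutrophils, went from 4.50, 3.84, 5.05, 4.13 and 5.31 to 6.20, 6.43, 6.43, 6.89 and 6.58 in p38WT and from 4.52, 4.78, 5.35, 4.67 and 4.56 to 5.44, 4.55, 3.75, 4.07 and 5.13 in p38DN. Its unirradiated levels overlapped between the genotypes, and after irradiation every p38WT array lay above every p38DN array. The difference was -2.13 (SE 0.463, adjusted p = 0.0231), and -2.28 without the 3 arrays (adjusted p = 0.0670). Ly6g, the surface protein used to identify mouse neutrophils, rose by 2.08 in p38WT and by 0.50 in p38DN, a difference of -1.57 (SE 0.372, adjusted p = 0.0322), and of -1.87 without the 3 arrays (adjusted p = 0.0542). Fpr1 and Fpr2, receptors for bacterial formyl peptides, differed by -1.80 and -1.83 (adjusted p = 0.0463 and 0.0460), and by -2.12 and -1.68 without the 3 arrays (adjusted p = 0.0769 and 0.160).

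Csta2 and Stfa3, of the stefin family of cysteine protease inhibitors encoded side by side on chromosome 16, were called in both fits and lay outside the neutrophil list. Csta2 (chr16:36257452-36257511, mm9) went from -5.04, -4.45, -3.48, -3.62 and -2.52 to -0.97, -0.51, -1.01, 0.27 and -0.08 in p38WT. In p38DN it was -2.95, -2.50, -2.39, -2.83 and -2.84 without and -2.19, -3.05, -3.04, -3.26 and -2.23 with irradiation. It was well above background on 2 of the 5 unirradiated p38WT arrays and on all 5 irradiated ones, and on 3 and 4 of the p38DN arrays, so its folds are not given. The groups did not overlap in p38WT and overlapped in p38DN, and the fitted difference was -3.41 (log2; SE 0.529, adjusted p = 0.00244), or -3.44 without the 3 arrays (adjusted p = 0.0283).

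Stfa3 (chr16:36450693-36450752, mm9) stood far higher in p38DN before irradiation. Its p38WT levels were -2.60, -1.78, -1.93, -2.21 and -0.82 without and -0.09, -0.58, -0.02, 0.03 and 0.01 with irradiation, and its p38DN levels were 3.91, 2.53, 3.86, 1.97 and 3.06 without and 2.86, 1.09, 2.75, 1.19 and 2.77 with irradiation. No p38WT array reached any p38DN array at either dose. The difference was -2.68 (SE 0.631, adjusted p = 0.0322), and -3.50 without the 3 arrays (adjusted p = 0.0397). The call of Stfa3 was lost in 15 of 41 alternative settings, among them leaving out p38WT unirradiated array 1, 2, 3 or 4. The related Stfa2, Stfa1 and Stfa2l1 differed by -2.19 (adjusted p = 0.0631), -1.70 (adjusted p = 0.138) and -2.28 (adjusted p = 0.0512) and were not called.

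Markers of natural killer cells, lymphocytes that kill infected and transformed cells, had differences mostly below 0, 16 of 19. Above 0 were 3 of 19, beside 10271 of all 18726 genes. In p38WT 14 of 19 rose and 0 fell, beside 15% and 12.1% of all genes. In p38DN 4 rose and 0 fell, beside 17.6% and 10.3%. Without the 3 arrays 0 rose and 1 fell in p38DN, beside 9.95% of all genes in each direction. The mean level of the list was between 1.61 and 2.11 without and between 3.03 and 3.49 with irradiation in p38WT. In p38DN it was 0.25, -0.32, 0.47, -0.94 and -0.92 without and 0.95, -0.32, 0.53, -0.38 and 0.92 with irradiation, and the doses overlapped. The median difference was -0.90 (0.08 over all genes) and -1.66 without the 3 arrays. In each fit 1 of 19 was called lower, beside 0.641% of all genes with all arrays and 0.288% without the 3 arrays. That gene was Khdc1a, which was well above background on 4 irradiated p38WT arrays and on no p38DN array. Its fitted difference was -2.47 (adjusted p = 0.0322), and -3.04 without the 3 arrays (adjusted p = 0.0458). The call of Khdc1a was lost in 14 of 40 alternative settings. Ncr1, the activating receptor NKp46, rose by 1.68 in p38WT (adjusted p = 0.00375) and changed by 0.30 in p38DN (adjusted p = 0.650), and the difference of -1.39 was not called (adjusted p = 0.203; -2.23 without the 3 arrays, adjusted p = 0.0945).

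**Figure D3:**
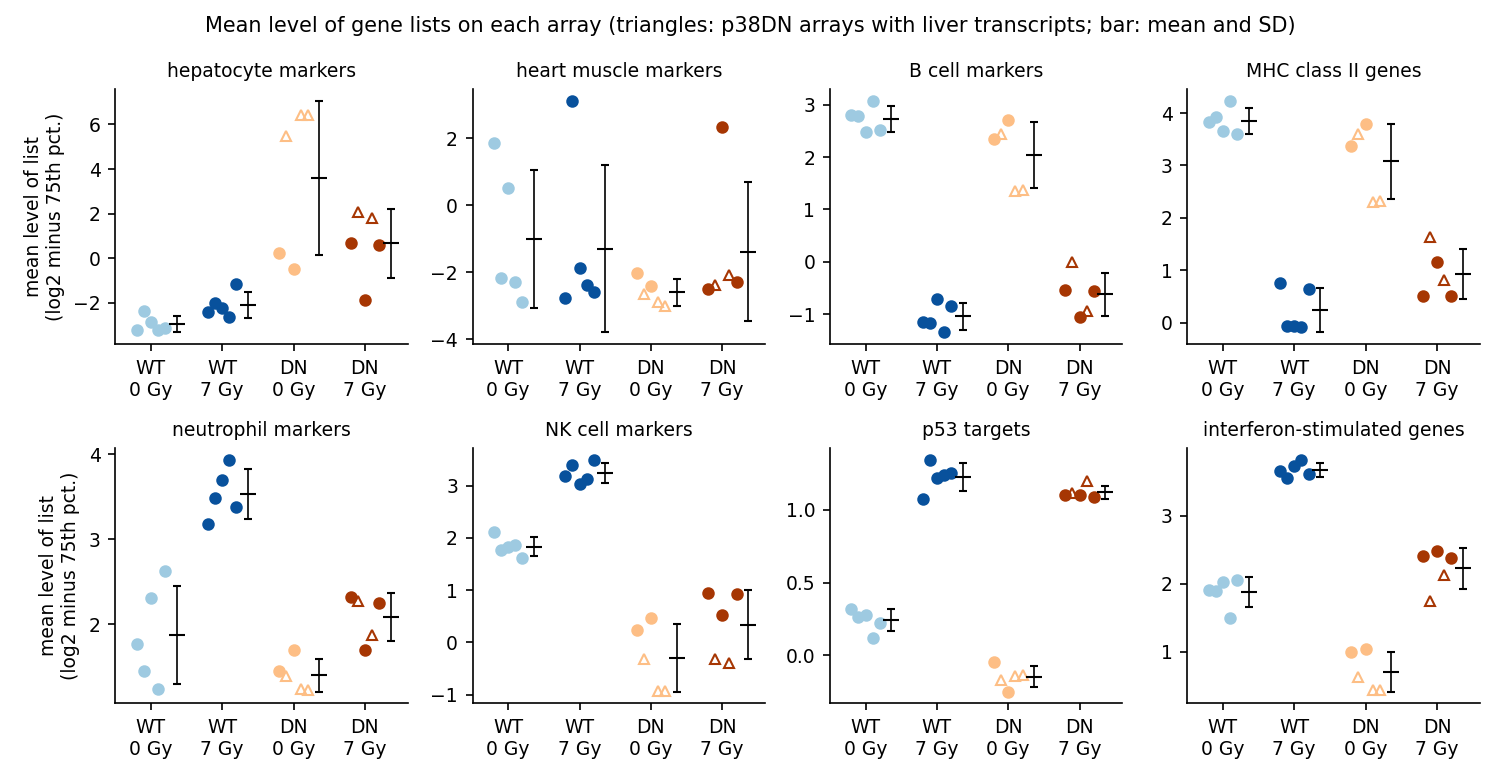
The y axis gives the mean level (log2 minus the 75th percentile) of 8 gene lists on each array, with the mean and SD of 5 arrays as a bar and the p38DN arrays high in liver transcripts as open triangles. Hepatocyte markers stand between 5.48 and 6.44 on 3 unirradiated p38DN arrays, and neutrophil and NK cell means are higher on every irradiated p38WT array than on any p38DN array.

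B cell transcripts fell in both genotypes, and no member was called for the difference. Of 26 markers, 24 fell and 0 rose in p38WT, beside 12.1% and 15% of all genes. The same counts held in p38DN, beside 10.3% and 17.6%. The mean level went from 2.80, 2.78, 2.47, 3.08 and 2.52 to -1.15, -1.16, -0.71, -1.35 and -0.85 in p38WT and from 2.34, 2.44, 2.70, 1.35 and 1.38 to -0.55, 0.00, -1.04, -0.94 and -0.55 in p38DN. Arrays 4 and 5 of the unirradiated p38DN group, both high in liver transcripts, were the lowest unirradiated arrays. The median difference of 1.27 (0.08 over all genes) was 0.71 without the 3 arrays and 0.44 without all 5. Vpreb3, a marker on this list, fell by 6.34 in p38WT and 5.87 in p38DN, with a difference of 0.47 (adjusted p = 0.684). Spib, a transcription factor of B cells, fell by 4.52 and 2.44, with a difference of 2.08 (adjusted p = 0.0643). Leaving out the 3 arrays gave differences of 0.16 for Vpreb3 (adjusted p = 0.932) and 1.63 for Spib (adjusted p = 0.255).

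Genes of MHC class II, which present antigen on B cells, monocytes and dendritic cells, fell as well. In p38WT 10 of 11 fell and in p38DN 11 of 11, beside 12.1% and 10.3% of all genes. For the difference 0 were called, with a median of 1.48 and of 1.04 without the 3 arrays. H2-Ab1, the beta chain of I-A, fell by 3.93 in p38WT and 1.83 in p38DN, a difference of 2.10 (SE 0.634, adjusted p = 0.0752), or 1.71 without the 3 arrays (adjusted p = 0.237). One of its irradiated p38WT spots was left out as an outlier, so that group had 4 arrays. A feature outside the lists, ENSMUST00000192250.1, which the array file describes as immunoglobulin heavy constant delta, the IgD heavy chain of mature B cells, was called. It fell from 5.27, 5.49, 5.2, 5.78 and 4.97 to -2.09, -1.84, -1.24, -1.19 and -1.38 in p38WT and from 3.69, 3.86, 4.44, 2.54 and 2.65 to 0.34, -0.53, 0.33, -0.88 and -0.28 in p38DN. It was lower in p38DN than in p38WT before irradiation and higher after it, on every array. The difference was 3.26 (SE 0.557, adjusted p = 0.00842), and 2.63 without the 3 arrays (adjusted p = 0.0524).

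Of the T cell markers, 1 of 30 rose and 9 fell in p38WT, beside 15% and 12.1% of all genes. In p38DN 2 rose and 8 fell, beside 17.6% and 10.3%. For the difference 0 were called, and the median was 0.28 and, without the 3 arrays, -0.09. Platelet markers rose in both genotypes: 29 of 32 rose in p38WT and 31 of 32 in p38DN, beside 15% and 17.6% of all genes. For their difference 0 were called, with a median of 0.44, or 0.35 without the 3 arrays. Erythroid markers fell for 20 of 43 in p38WT and 27 of 43 in p38DN, beside 12.1% and 10.3% of all genes. Their median difference of -0.52 (0 called, 0.08 over all genes) was -0.81 without the 3 arrays. It was 0.00 without scaling, beside 0.60 over all genes, and 0.18 after normexp correction, beside -0.12.

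Mcpt8, a protease of basophils, was detected in unirradiated p38WT blood only. Its levels there were -0.40, -1.20, -0.92, -1.23 and -0.19, and they were -5.81, -4.64, -4.15, -3.21 and -4.19 after irradiation, where no array was well above background. In p38DN it ran from -5.68 to -4.43 without and from -5.80 to -4.50 with irradiation, not well above background on any array. Mcpt8 fell at least 5.59-fold in p38WT, and no fold can be given for p38DN. The fitted difference was 3.57 (SE 0.523, adjusted p = 0.00149), and 3.05 without the 3 arrays (adjusted p = 0.0397). Cd200r3, a receptor of basophils and mast cells singled out after its values were seen, had the same pattern, with a p38WT fall of at least 2.34-fold, no p38DN array above background and a fitted difference of 2.75 (adjusted p = 0.0175), or 2.17 without the 3 arrays (adjusted p = 0.125). Fcer1a, the receptor chain that binds IgE on these cells and also looked at after the values were seen, shared it only in part. It fell by 2.25 in p38WT (adjusted p = 0.000966), where the doses overlapped, and changed by 0.23 in p38DN (adjusted p = 0.768). Its difference of 2.47 was not called (adjusted p = 0.0575), nor was that of 1.70 without the 3 arrays (adjusted p = 0.276). Unirradiated, it was above background on 5 p38WT and 0 p38DN arrays, and irradiated on 3 p38WT and 2 p38DN arrays. For Mcpt8 and Cd200r3 the difference sets a fall in p38WT against p38DN levels at the detection limit at both doses.

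Of 25 markers of monocytes and macrophages, 11 rose and 4 fell in p38DN and 5 rose and 5 fell in p38WT, beside 17.6% and 10.3% and beside 15% and 12.1% of all genes. For the difference 2 of 25 were called higher (0.999% of all genes). The median difference was 0.89 (0.08 over all genes), 0.78 without the 3 arrays and 0.38 without all 5. The called markers were Ms4a7, a tetraspan membrane protein of macrophages (difference 2.80, adjusted p = 0.0339), and Adgre4, an adhesion receptor related to F4/80 (2.46, adjusted p = 0.0481). Without the 3 arrays they gave 2.98 (adjusted p = 0.0803) and 1.75 (adjusted p = 0.198). Of 15 dendritic cell markers, 2 were called higher and 0 lower, beside the same shares of all genes (0.999% and 0.641%), with a median difference of 0.24. Clec10a, a galactose-binding lectin of macrophages and dendritic cells, went from 0.90, 0.25, 0.82, 0.09 and 1.49 to 0.80, -1.64, 1.13, -1.74 and 0.80 in p38WT and from 0.38, -0.78, -0.73, -0.58 and -0.36 to 1.23, 3.32, 2.39, 3.10 and 1.19 in p38DN. The p38WT doses overlapped and the p38DN doses did not, and the highest arrays, p38DN irradiated 2 and 4, were the irradiated arrays highest in hepatocyte markers. The difference was 3.50 (SE 0.766, adjusted p = 0.0235), 3.27 without the 3 arrays (adjusted p = 0.0993) and 2.62 without all 5 (adjusted p = 0.330). Tcf4, the transcription factor E2-2 of plasmacytoid dendritic cells and B cells, fell by 1.61 in p38WT and changed by -0.04 in p38DN, a difference of 1.57 (SE 0.293, adjusted p = 0.0125), or 1.28 without the 3 arrays (adjusted p = 0.0728).

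**Figure D4:**
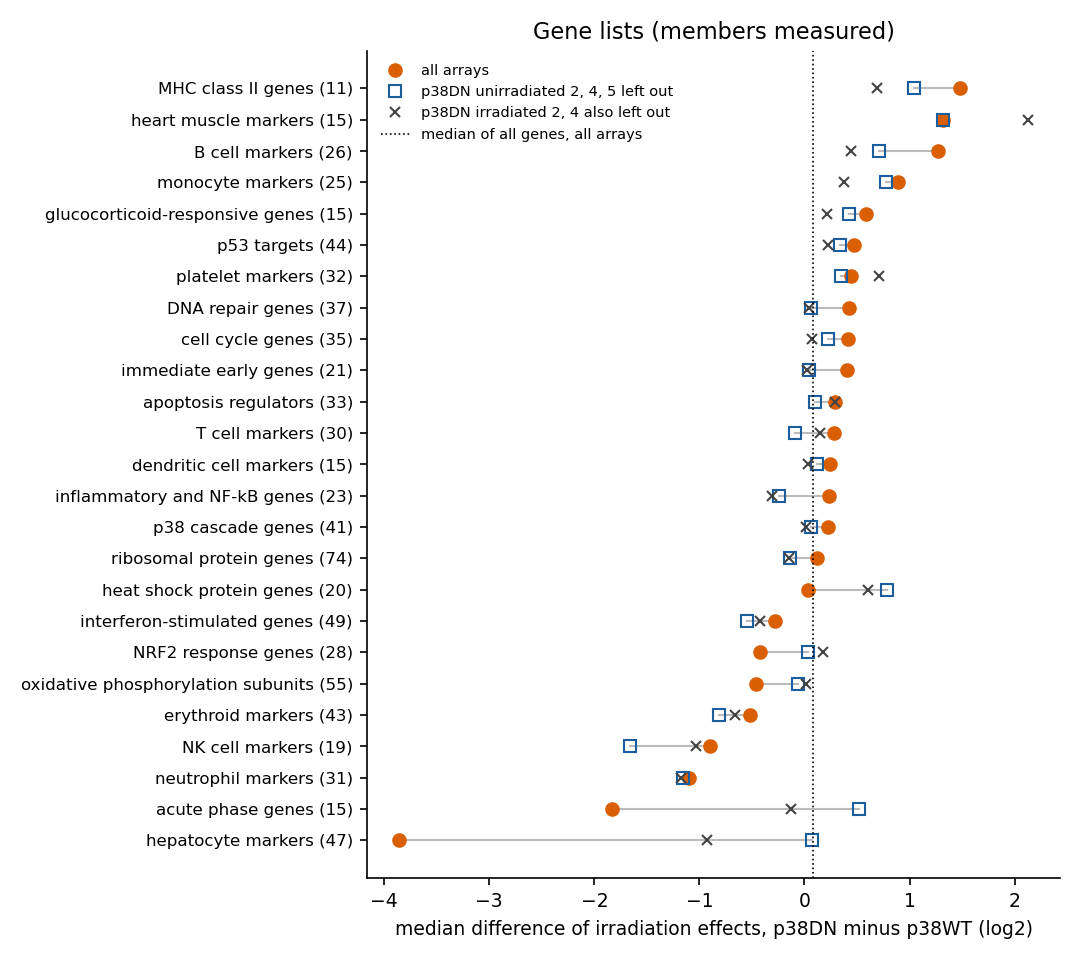
For each of 25 gene lists (members measured in brackets) the x axis gives the median difference of the irradiation changes, p38DN minus p38WT, in log2, with all arrays (circle), without p38DN unirradiated arrays 2, 4 and 5 (square) and without irradiated arrays 2 and 4 as well (cross); the dotted line is the median of all genes with all arrays, 0.08. B cell, MHC class II and monocyte lists lie to the right and NK cell and neutrophil lists to the left in all 3 fits. Hepatocyte markers move from -3.86 to 0.07 and then to -0.93.

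Other genes called higher in both fits included Ric1, a part of a Golgi guanine nucleotide exchange complex. It was -0.88, -0.49, -0.95, -0.93 and -0.94 without and -0.90, -0.41, -0.34, -0.93 and -1.18 with irradiation in p38WT, and -2.97, -2.59, -3.69, -2.62 and -2.87 without and -1.56, -0.61, -1.72, -0.78 and -1.14 with irradiation in p38DN. The p38DN levels started below every p38WT array and reached their range after irradiation, with a difference of 1.70 (SE 0.328, adjusted p = 0.0147), or 2.09 without the 3 arrays (adjusted p = 0.0256). Sccpdh and P4ha1, a subunit of the prolyl hydroxylase of collagen, showed the same order of levels, with differences of 1.5 and 1.86 (adjusted p = 0.0147 for both) and of 1.67 and 2.04 without the 3 arrays. Ddr1, a collagen receptor, and Rtn1, a protein of the endoplasmic reticulum, were well above background on no unirradiated p38DN array. In p38DN they were higher after irradiation by at least 1.78-fold and at least 1.72-fold, with the doses of Rtn1 overlapping. In p38WT Rtn1 fell by 2.08 (log2; adjusted p = 0.000865), without overlap of the doses. It was above background there on 5 unirradiated arrays and 1 irradiated array. Their fitted differences, which rest on those dim levels, were 3.10 (adjusted p = 0.0171) and 3.39 (adjusted p = 0.0125), and 3.22 (adjusted p = 0.0463) and 3.41 (adjusted p = 0.0458) without the 3 arrays. Defb40, a beta-defensin, and D10Wsu102e were detected in unirradiated p38WT blood only, where they fell at least 3.72-fold and at least 1.5-fold. Ric1, Sccpdh, P4ha1, Defb40 and D10Wsu102e were among the 7 named genes whose sign turned under normexp background correction.

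Of the genes called lower in both fits, Lce1a1 had the largest fitted difference (-3.93, adjusted p = 0.0166; -4.47 without the 3 arrays, adjusted p = 0.0439) and was above background on no p38WT array, on 5 unirradiated and on 1 irradiated p38DN array. It was singled out after its values were seen. Meig1 was above background in irradiated p38WT blood only. This gene, known from sperm development and also singled out afterwards, went from -5.48, -4.86, -3.93, -5.60 and -5.51, with no array above background, to -1.45, -1.29, -2.87, -0.29 and -1.19 in p38WT. It was well above background on no p38DN array, rose at least 4.31-fold in p38WT and had a fitted difference of -3.65 (SE 0.532, adjusted p = 0.00149), -4.19 without the 3 arrays (adjusted p = 0.0118) and -4.02 without all 5 (adjusted p = 0.0477), where it was 1 of the 2 genes still called. The uncharacterised gene 1600014C10Rik had the smallest adjusted p of all. It rose from -1.40, -1.35, -1.31, -1.50 and -1.16 to 0.91, 0.90, 0.91, 1.61 and 0.80 in p38WT and was -2.53, -1.81, -1.95, -1.17 and -1.12 without and -1.67, -1.60, -1.46, -1.67 and -1.36 with irradiation in p38DN. Only the irradiated p38WT arrays stood apart, and the difference was -2.20 (SE 0.302, adjusted p = 0.00134), -1.68 without the 3 arrays (adjusted p = 0.0256) and -1.25 from its other probe.

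Further genes called lower in both fits were Ly6f, of the Ly6 family of surface proteins (-2.59, adjusted p = 0.0175), Cldnd2 (-2.07, adjusted p = 0.0231) and 2310047D07Rik (-2.34, adjusted p = 0.0125, above background on 1 of 10 p38DN arrays). Without the 3 arrays they gave -2.89, -2.69 and -2.37 (adjusted p = 0.0463, 0.0277 and 0.0458). For 1700113H08Rik, 1700019A02Rik and ENSMUST00000231182.1 the genotypes stood apart at both doses: all 10 p38DN arrays were well above background, and at most 1 p38WT array was. Their fitted differences of -2.62, -2.56 and -2.41 (adjusted p = 0.0258, 0.0309 and 0.0147) come largely from p38WT values below background, and their p38DN changes alone were -0.81, -0.81 and -0.97. Their calls were lost in 7 of 40, 15 of 41 and 6 of 41 alternative settings. Etv5, an ETS transcription factor, and Slc4a2, an anion exchanger, were also higher in p38DN on every array of either dose, with differences of -1.40 (adjusted p = 0.0267) and -1.0 (adjusted p = 0.0472). Dgat1, an enzyme of triglyceride synthesis, rose by 1.34 in p38WT and changed by -0.50 in p38DN, a difference of -1.84 (adjusted p = 0.00677). With the 3 arrays left out the differences were -1.70 for Etv5 (adjusted p = 0.0439), -1.47 for Slc4a2 (adjusted p = 0.0259) and -1.68 for Dgat1 (adjusted p = 0.0458). Etv5, Slc4a2 and Dgat1 were chosen after their values were seen.

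The probes of 2 features that the array file names only by a transcript identifier are printed, since the probe is their identity.
ENSMUST00000225881.1: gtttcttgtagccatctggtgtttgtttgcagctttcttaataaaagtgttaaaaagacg
ENSMUST00000225278.1: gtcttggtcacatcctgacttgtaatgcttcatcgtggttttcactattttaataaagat
The first was detected in unirradiated p38WT blood (1.38, 0.48, -0.07, -0.29 and -0.32) and fell at least 11.4-fold there, to levels not above background. Its p38DN levels ran from -5.2 to -2.76 without and from -5.43 to -4.13 with irradiation, above background on 1 of 10 arrays, and its fitted difference, set against those dim levels, was 3.75 (adjusted p = 0.0101), or 3.48 without the 3 arrays (adjusted p = 0.0397). The second (chr1:153058860-153058919, mm9) was above background on the 5 irradiated p38WT arrays only, at -2.08, -1.82, -0.59, -1.49 and -1.59, where it had risen at least 4.04-fold. Its fitted difference was -3.80 (adjusted p = 0.0175), or -4.36 without the 3 arrays (adjusted p = 0.0458).

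The remaining lists held few called members, beside 0.999% of all genes called higher and 0.641% lower, and nothing is read from single calls. Cell cycle genes had 2 of 35 called higher, the transcription factor E2f1 (1.03, adjusted p = 0.0384) and the mitotic kinase Aurka (2.78, adjusted p = 0.0439), with a median difference of 0.41 and of 0.22 without the 3 arrays. Aurka was highest on p38DN irradiated arrays 2 and 4 (-0.98 and 0.07, against -3.57 to -3.03 on the other irradiated ones), the arrays highest in hepatocyte markers among those irradiated. DNA repair genes had 1 of 37 called higher, the mismatch repair protein Msh6, which fell by 1.21 in p38WT and changed by -0.05 in p38DN (difference 1.16, adjusted p = 0.0151; 0.92 without the 3 arrays, adjusted p = 0.0922). Ripk1, a kinase of cell death signalling, was 1 of 33 apoptosis regulators called (1.22, adjusted p = 0.0420), and Abcc1, a drug efflux pump, 1 of 28 NRF2 response genes (1.75, adjusted p = 0.0335). Map3k6 was also the 1 called of 15 glucocorticoid-responsive genes. Cox7c, a subunit of cytochrome c oxidase, was the 1 of 55 oxidative phosphorylation genes called lower (-1.03, adjusted p = 0.0490). Ribosomal protein genes (74), inflammatory genes (23), immediate early genes (21) and heat shock genes (20) had 0 called with all arrays. Without the 3 arrays 1 heat shock gene, Hspa8, a constitutive chaperone, was called (1.44, adjusted p = 0.0397, against 0.81 with all arrays, adjusted p = 0.176), and the median of that list went from 0.03 to 0.79. None of Aurka, E2f1, Msh6, Ripk1, Abcc1 and Cox7c was called without the 3 arrays.

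Genes of liver had different values with and without the arrays that carried liver transcripts. The median difference of 47 hepatocyte markers was -3.86 with all arrays and 0.07 without the 3 arrays, and 0 were called in either fit. Without all 5 arrays high in liver transcripts the median was -0.93. H2-Q10, a secreted class I molecule made in liver, and Acot1, an acyl-CoA thioesterase, were called at -4.28 (adjusted p = 0.0332) and -3.52 (adjusted p = 0.0420). Without the 3 arrays they gave -1.84 (adjusted p = 0.264) and -1.20 (adjusted p = 0.334). Of 15 acute phase genes 1 was called, Steap4, a metalloreductase (-3.10, adjusted p = 0.0269; -2.63 without the 3 arrays, adjusted p = 0.138), and their median went from -1.83 to 0.52. S100a2 (-3.41, adjusted p = 0.0267) gave -3.65 without the 3 arrays (adjusted p = 0.0721). Heart muscle markers (15) had 0 called and a median of 1.32 in both fits, and of -1.04 with the slide as a fixed block.

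The gap between the genotypes before and after irradiation describes the 307 genes from another side. For 181 of the 187 genes called higher, p38DN lay below p38WT before irradiation, as it did for 12219 of all 18726 genes, with a median gap (p38DN minus p38WT) of -1.15 before and 0.15 after. For the 120 called lower the median gap was 1.83 before and 0.02 after. The gap was smaller after irradiation for 151 of the 187 and 70 of the 120, and for 11899 of all 18726, whose median gap was -0.42 before and -0.23 after. The same arrays gave the gaps and the calls, and the gap at either dose cannot be told apart from the scanning period. The count of calls also moved with single arrays: it was 84, 123, 137 and 107 without p38WT unirradiated array 1, 2, 3 or 4, and 143 and 136 without p38WT irradiated array 2 or 4. It was 138, 162 and 110 without p38DN unirradiated array 2, 4 or 5, and 90 and 96 without p38DN irradiated array 2 or 4.

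**Figure D5:**
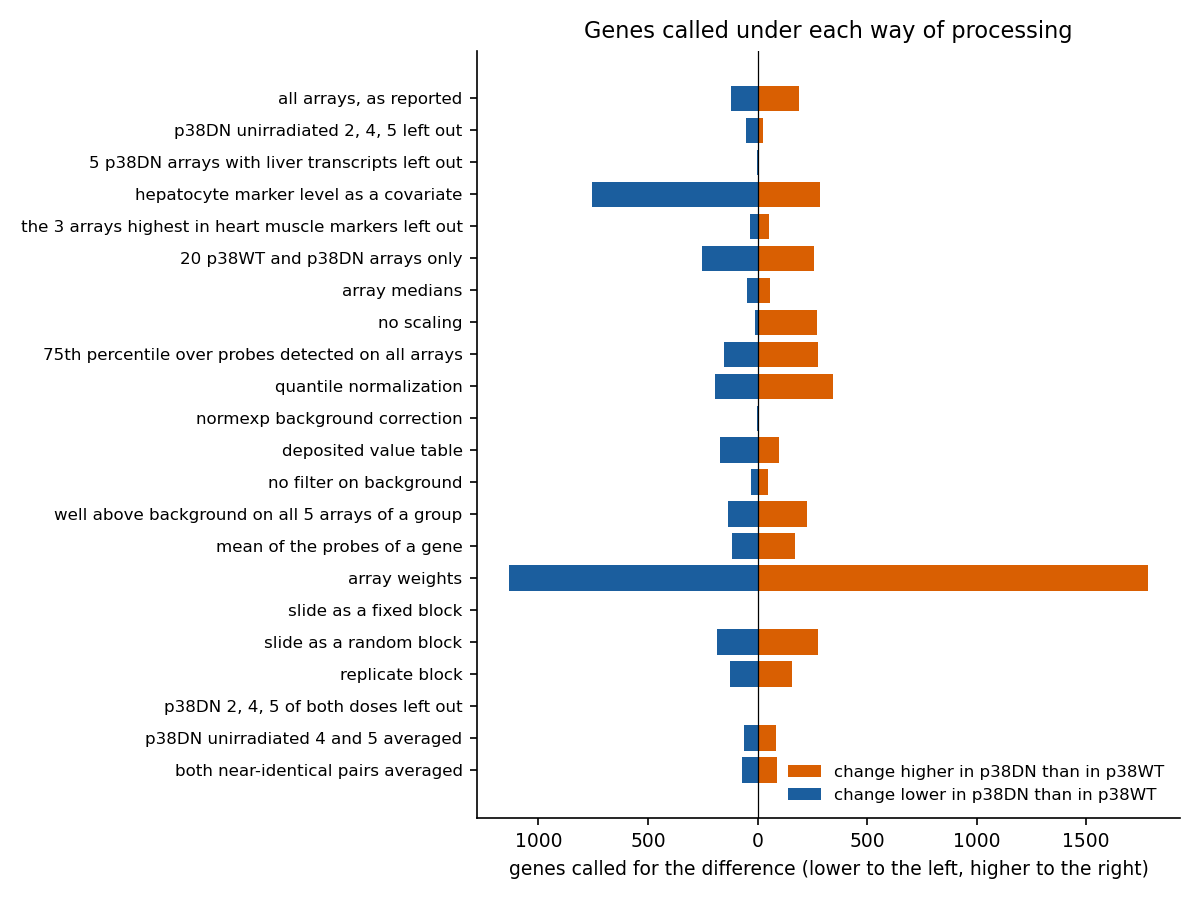
Bars give the number of genes called for the difference under each way of processing, with genes whose change was lower in p38DN to the left and higher to the right of 0. The count was 307 as reported, 77 without p38DN unirradiated arrays 2, 4 and 5, 2 without all 5 arrays high in liver transcripts, 1 after normexp correction and 2915 with array weights.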

How the data were processed

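RNA of mouse blood was hybridised to one-colour Agilent arrays and read with Feature Extraction 12.0.2, per the submitters' processing notes. The deposited scanner files give a background-corrected processed signal intensity per spot. From it, log2 minus each array's 75th percentile was computed, control spots and outlier flags were left out, and spots of a probe were averaged. A probe was kept when well above background on at least 4 of 5 arrays of a group. Genes were named through accession, symbol or synonym in a RefSeq table, or else kept the file's name, and each of 18726 genes was represented by its brightest kept probe. The deposited log2 value table equals log2 processed signal minus 1 constant per array, was checked against the scanner values and served as an alternative.

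All 30 arrays entered 1 limma fit with 6 group means, 24 residual degrees of freedom and Benjamini-Hochberg adjustment. P-values measure the spread between arrays, which the labels call independent experiments, and precision is limited by how many arrays there are. The fit counted p38DN unirradiated arrays 4 and 5, and irradiated arrays 1 and 5, as separate arrays. Whether either pair shares an RNA was not tested. A fold of a gene not above background in the dimmer group is a lower bound against the lowest signal well above background. The named genes were up to 10 with the largest difference of each sign among those called and of the same sign in both fits, well above background on all arrays of a group and without overlap between doses in a genotype; up to 5 of each sign from all arrays alone; the 2 members of each list with the smallest p; the 4 p38 genes; and list members as examples. Members and lists were chosen with earlier results of these data known. Scripts were tested on simulated data. R 4.3.3 with limma 3.58.1 and Python 3.11.15 with matplotlib 3.10.9 were used.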

Additional observations from a re-analysis of the deposited data

Results flagged for a closer look

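The contrast is itself a difference between 2 genotypes in the response to irradiation, and 307 genes were called for it. These are fitted values, and several rest on levels not well above background. Among the named genes the tested differences above 0 (log2, p38DN minus p38WT) were 3.75 for ENSMUST00000225881.1, 3.57 for Mcpt8, 3.50 for Clec10a, 3.39 for Rtn1, 3.26 for ENSMUST00000192250.1, 3.10 for Ddr1, 2.80 for Ms4a7 and 2.78 for Aurka. They were 2.76 for Defb40, 2.46 for Adgre4, 2.16 for D10Wsu102e, 1.99 for Tnfrsf10b, 1.98 for Map3k6, 1.86 for P4ha1, 1.76 for Mapk12, 1.75 for Abcc1 and 1.70 for Ric1. The smaller ones were 1.68 for Zmat3, 1.57 for Tcf4, 1.5 for Sccpdh, 1.22 for Ripk1, 1.16 for Msh6 and 1.03 for E2f1.

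The tested differences below 0 were -4.28 for H2-Q10, -3.80 for ENSMUST00000225278.1, -3.52 for Acot1, -3.41 for both S100a2 and Csta2, -3.10 for Steap4, -2.68 for Stfa3 and -2.62 for 1700113H08Rik. They were -2.59 for Ly6f, -2.56 for 1700019A02Rik, -2.47 for Khdc1a, -2.41 for ENSMUST00000231182.1, -2.34 for 2310047D07Rik, -2.20 for 1600014C10Rik and -2.13 for Retnlg. The smaller ones were -2.07 for Cldnd2, -1.95 for Ifit3, -1.60 for Oasl1, -1.57 for Ly6g and -1.03 for Cox7c.

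A single array stood far from the other 4 of its group in 18 of 284 groups of values examined, where chance flags about 1 in 20 groups. Among p38WT unirradiated arrays, array 2 was apart for Ddr1 (-0.68), Ric1 (-0.49) and 1700113H08Rik (-5.34), and array 5 for Zmat3 (-1.88). Among p38WT irradiated arrays, array 2 was apart for Stfa3 (-0.58), array 3 for S100a2 (1.14), and array 4 for 1600014C10Rik (1.61) and Mapk12 (-3.40). The p38DN unirradiated array 1 was apart for ENSMUST00000231182.1 (0.38), Steap4 (-4.49) and Aurka (-4.83).

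Mean levels of lists stood apart as well. The heart muscle mean was 3.12 on p38WT irradiated array 2 and 2.33 on p38DN irradiated array 3. The interferon-stimulated mean was 1.49 on p38WT unirradiated array 4, the p53 target mean 1.20 on p38DN irradiated array 4 and the cell cycle mean -0.05 on p38WT unirradiated array 5. The glucocorticoid-responsive mean was 2.59 on p38WT irradiated array 3 and the heat shock mean 2.88 on p38DN irradiated array 3.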

How the results depend on the processing

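The 307 calls for the difference (187 higher, 120 lower) moved with the arrays used. They were 77 (23 higher, 54 lower) without p38DN unirradiated arrays 2, 4 and 5 and 2 (0 higher, 2 lower) without irradiated arrays 2 and 4 as well, where p38DN itself had 2711 calls. Without the 3 arrays highest in heart markers they were 85 (52, 33), and with only the 20 p38WT and p38DN arrays 511 (258, 253). Scaling gave 106 (56, 50) with array medians, 286 (273, 13) with none and 3375 for p38DN, and 538 (343, 195) with quantiles. Normexp, with its offset of 50, gave 1 (0, 1), with 1335 calls in p38WT and 436 in p38DN. It turned the sign of Defb40 (-0.01), D10Wsu102e (-0.21), P4ha1 (-0.01), Ric1 (-0.07), Sccpdh (-0.22), Tnfrsf10b (-0.46) and Cox7c (0.31). The deposited table gave 266 (96, 170), no filter 78 (47, 31), array weights 2915 (1781, 1134) and the hepatocyte covariate 1040 (283, 757). Slide as a fixed block gave 2 (2, 0) and 163 in p38WT, whose effect then rests on slide 7; as a random block it gave 461 (277, 184). Chosen after seeing the data, leaving out p38DN arrays 2, 4 and 5 of both doses gave 1 (1, 0) and 1691 in p38DN, averaging p38DN unirradiated arrays 4 and 5 gave 145 (84, 61), and averaging irradiated arrays 1 and 5 too gave 162 (90, 72). In the fit without the 3 arrays, the 77 calls became 2 without irradiated arrays 2 and 4, 359 with the covariate, 43 without heart-marked arrays, 211 with 20 arrays, 29 with medians, 3416 with no scaling, 119 with the percentile over detected probes, 352 with quantiles, 2 with normexp, 5 with no filter, 629 with weights, 1 and 339 with slide fixed and random, 1 without arrays 2, 4 and 5 of both doses and 116 with both pairs averaged. The cause of these shifts was not tested.

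Leaving out 1 array at a time gave 84 to 454 calls, 52 to 271 higher and 27 to 187 lower, 4081 to 5178 in p38WT, 4302 to 5441 in p38DN, and 1 to 245 in the fit without the 3 arrays. Of the 307, normexp kept the sign of 257, and the deposited table that of 243 of 249 tested; every other setting kept the sign of all tested, which were 301 under the stricter filter and 307 elsewhere. The replicate number as a block gave 283 calls (156, 127), and 4 in the fit without the 3 arrays. The correlation of same-numbered deviations ran from -0.149 to 0.411, so the numbers were not taken to pair the arrays, although same-numbered p38DN arrays shared a slide. The named calls lost most often, with the sign kept, were Cox7c (33 of 41 settings), Adgre4 (30), Acot1 and Ripk1 (26 each) and Aurka (25). After these came E2f1 (24 of 40), Mapk12 (23 of 41), H2-Q10 and Abcc1 (21 each) and Ly6g (17). Signals not well above background limit what folds can be given.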
